A study of Mus musculus with 9 samples.

Results

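The probes described here read cDNA clones from the RIKEN mouse collection whose identifiers begin with the prefix of a liver library (1300), a pancreas library (1810), a small intestine library (2010), a stomach library (2210), a colon library (9030) or a cecum library (9130). They were chosen by the start of the probe name. The complex I subunit Ndufab1, the small nucleolar RNA host genes and the opposite-strand genes were left out by gene symbol. The rule matched 240 probes, 4 of which were left out, and the remaining 236 made up 236 of 97836 probes on the array and 236 of 15675 probes to RIKEN clones. They read 236 different clones: 4 from liver, 35 from pancreas, 36 from small intestine, 33 from stomach, 61 from colon and 67 from cecum. A reference table paired 59 of them with a gene, 42 protein-coding and 17 noncoding, and 177 had no gene name.

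The RNA came from livers of male C57BL/6J mice aged 20 weeks, in 3 groups of 3 pools, each pool holding 4 mice, 36 mice in all. Control mice ate chow for 17 weeks, and no gavage is recorded for them. The high fat diet group ate a diet with 45% of its energy from fat for 17 weeks and received saline by gavage over the last 5 weeks. The metformin group ate that diet for the same time and were given the glucose-lowering drug metformin at 3 mg/kg/day by gavage over the last 5 weeks. The groups ask what the diet and the drug do to transcripts of the liver. Because the RNA is bulk tissue, fewer cells of a type and less RNA per cell cannot be told apart, and because each sample is a pool, the p-values measure the spread between pools.

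A RIKEN prefix records the tissue from which a cDNA library was made, not the tissue to which a transcript is restricted. Many clones were made from widely transcribed genes, and many others from partial, unspliced or intergenic transcripts that never received a gene name. Liver and gut also share programmes: bile acids made by hepatocytes are taken back up in the ileum by the transporter Slc10a2, and hepatocytes and enterocytes use related transcription factors. A probe on an array measures its own short stretch of a transcript, so the reading of a clone probe need not equal that of another probe to the same gene. Genes were paired with clones by identifier only, and the probe positions were not known. Whether a probe reads the messenger RNA of its named gene was not tested.

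The upstream bases of 4 gene-named members are shown because they carry the gene-named results: the 3 brightest gene-named clones and the one with the smallest p for metformin against saline. They are the bile acid transporter Slc10a2, the RNA-binding protein A1cf, the noncoding gene 1810012K16Rik and the transcription subunit Snapc5. Each line gives the 250 bases before the annotated start, 5′ to 3′ in the direction of the gene, from RefSeq on GRCm38.p6, at chr8:5105288-5105537 (minus strand), chr19:31868563-31868812 (plus strand), chr8:22398471-22398720 (plus strand) and chr9:64179047-64179296 (plus strand). Capitals mark a hepatocyte nuclear factor 1 half-site, searched as GTTAAT or ATTAAC, in Slc10a2, and a hepatocyte nuclear factor 4 half-site, searched as CAAAGT or ACTTTG, in A1cf and Snapc5.
Slc10a2: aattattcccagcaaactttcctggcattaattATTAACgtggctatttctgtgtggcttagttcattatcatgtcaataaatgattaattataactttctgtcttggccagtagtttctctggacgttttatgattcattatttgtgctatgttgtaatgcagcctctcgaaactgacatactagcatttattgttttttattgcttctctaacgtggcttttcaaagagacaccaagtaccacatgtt
A1cf: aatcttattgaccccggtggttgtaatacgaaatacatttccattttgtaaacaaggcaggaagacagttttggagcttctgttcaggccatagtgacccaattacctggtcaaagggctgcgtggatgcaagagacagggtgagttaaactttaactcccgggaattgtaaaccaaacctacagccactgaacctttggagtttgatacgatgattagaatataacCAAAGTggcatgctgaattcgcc
1810012K16Rik: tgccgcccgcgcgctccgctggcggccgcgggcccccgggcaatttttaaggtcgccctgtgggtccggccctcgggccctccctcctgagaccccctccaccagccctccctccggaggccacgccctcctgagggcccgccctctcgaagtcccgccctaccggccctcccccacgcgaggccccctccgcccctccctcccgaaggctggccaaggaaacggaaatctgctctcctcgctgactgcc
Snapc5: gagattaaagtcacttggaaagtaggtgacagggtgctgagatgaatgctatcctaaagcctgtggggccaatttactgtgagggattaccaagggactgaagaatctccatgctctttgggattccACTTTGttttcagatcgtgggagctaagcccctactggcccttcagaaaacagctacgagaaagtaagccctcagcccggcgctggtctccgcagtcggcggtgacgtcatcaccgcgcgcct

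The marked half-site lies 217 bases before the start in Slc10a2, 23 bases in A1cf and 123 bases in Snapc5, and neither motif is in the 1810012K16Rik window. RefSeq held a promoter for 48 of the 59 gene-named members, 58 promoters in all. The hepatocyte nuclear factor 1 half-site was in 6 of them (10.3%), against 6.4% of 32851 promoters of the same length, and the hepatocyte nuclear factor 4 half-site in 10 (17.2%), against 12.6%. The TATA box, searched as TATAAA or TTTATA, was in 6 (10.3%), against 12.4%. Both strands were searched and each motif was counted on its own, without regard to overlap with another, and a match is a description of letters, not of binding.

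On each array 52.9% to 63.5% of spots were well above background, no spot was saturated, and the 75th percentile of the signal lay between 176.6 and 258.2. Levels below are log2 of the processed signal less that percentile of the same array, so 0 is the 75th percentile, and levels of different probes cannot be ranked as amounts of RNA. The control arrays and high fat diet replicate 1 lie on slide 1, high fat diet replicates 2 and 3 and metformin replicates 1 and 2 on slide 2, and metformin replicate 3 on slide 3. Diet and slide are therefore crossed on slide 1 only, drug and slide on slide 2 only, and no slide holds both a control and a metformin array. The tissue label could not be checked on the members, since 0 of 70 marker genes in 12 lists has one, and 0 of 9 hepatocyte markers has a named probe anywhere on the array.

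Of the 236 clones, 156 (66.1%) were above background on at least 3 of 9 arrays, against 60.3% of the other RIKEN clone probes and 63.5% of all probes. A total of 120 (50.8%) were above background on all 9 arrays and 65 (27.5%) on none. Small intestine clones were above background least often, with 19 of 36 (52.8%) on at least 3 arrays and 15 (41.7%) on none. The share was 24 of 33 (72.7%) for stomach, 43 of 61 (70.5%) for colon, 24 of 35 (68.6%) for pancreas and 43 of 67 (64.2%) for cecum, and 3 of the 4 liver clones were above background on all 9 arrays. No test was made between these shares, since clones are not replicates. Colon and cecum clones are read by 1 spot each (128 members) and the clones of the other prefixes by 2 (108 members).

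**Figure D1:**
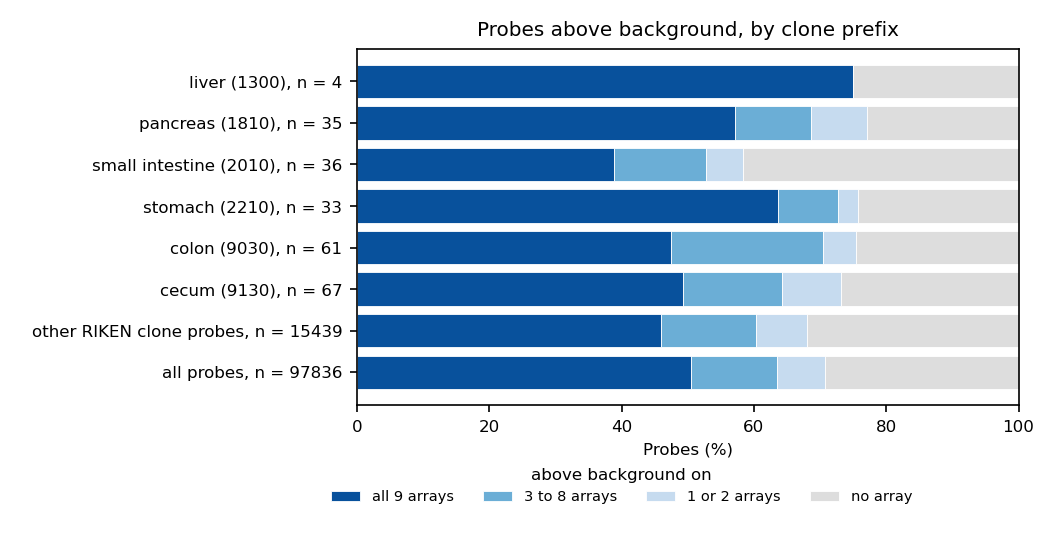
Share of clones well above background in liver RNA, in percent, by library prefix, beside the other RIKEN clone probes and all probes on the array. Small intestine clones have the lowest share on at least 3 of 9 arrays (52.8%), while stomach, colon, pancreas and cecum clones lie between 64.2% and 72.7%.

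By annotation, protein-coding members were above background on at least 3 arrays in 32 of 42 cases (76.2%), members without a gene name in 116 of 177 (65.5%) and named noncoding members in 8 of 17 (47.1%). The number of members above background was 142 to 163 per control array, 140 to 153 per high fat diet array and 133 to 159 per metformin array, so the ranges overlap.

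A total of 16 gene-named clones were not flagged as well above background in any pool. Zg16, a protein of secretory granules in pancreas and gut, the nucleobase transporter Slc23a4, the epithelial integrin subunit Itgb6 and the lysophospholipid acyltransferase Mboat1 were among them. So were the clones of Rnf13, a ubiquitin ligase, Ogfod2, Fam217b and 1810020O05Rik, and those of the 8 noncoding genes 1810007C17Rik, 1810013D15Rik, 2010009K17Rik, 2010204K13Rik, 2210409D07Rik, 9130204K15Rik, 9130208D14Rik and 9130221F21Rik. Clones of Lsm5, a subunit of the ring that binds U6 RNA, and of Prrg1 were above background on 2 arrays, and that of 9130209A04Rik on 1. For 1810013D15Rik, 2 other probes to predicted transcripts were above background on 2 and on 9 arrays, where the clone probe was on 0. These calls depend on the flag. With the scanner's flag for positive and significant signal in its place, 202 members counted as above background, against 156. Whether the 16 clones were among the 202 was not tested, so absence of signal cannot be concluded for them.

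Over the 156 clones tested, levels ranged from -4.10 to 6.49 with a median of -1.06 (quartiles -2.27 and 0.56). A total of 48 (30.8%) were above the 75th percentile of the array, against 27.1% of other RIKEN clone probes and 39.2% of all probes. By prefix the median level was -1.31 for pancreas, -1.28 for small intestine, -1.15 for colon, -1.05 for cecum and -0.32 for stomach, and 1.20 for the 3 liver clones. The median standard deviation between pools of a group was 0.28 for the members and 0.24 for all probes, and by prefix it lay between 0.23 (stomach) and 0.40 (liver).

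The brightest gene-named clones came from the pancreas, cecum and liver libraries. The 1810012K16Rik clone (pancreas library, a noncoding gene) was at 4.84, 4.50 and 4.57 in controls, 4.53, 4.71 and 4.89 on the high fat diet and 4.67, 5.03 and 5.13 with metformin. All 9 values lie within a span smaller than 1 log2 unit, and the groups overlap. The Slc10a2 clone (cecum library) was at 3.64, 4.39 and 4.30 in controls, 4.31, 5.01 and 4.67 on the high fat diet and 4.66, 4.10 and 4.39 with metformin. Slc10a2 is the apical sodium-dependent bile acid transporter, which returns bile acids from the ileal lumen. The diet group was higher than control by 0.55 (SE 0.25, limma adjusted p = 0.426), with overlapping pools, and without control replicate 1 the difference was 0.32. The value within slide 1 was 0.20.

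The A1cf clone (pancreas library) was at 3.95, 4.27 and 4.27 in controls, 4.44, 4.23 and 4.24 on the high fat diet and 4.26, 4.33 and 4.53 with metformin. A1cf binds RNA as the partner of the enzyme that edits apolipoprotein B messenger RNA. Its groups overlap, and the metformin group differed from control by 0.21 (SE 0.15, limma adjusted p = 0.479), by 0.10 without control replicate 1, by 0.13 without metformin replicate 3 and by 0.33 with slide as a fixed block. The Gpt clone (liver library) was at 3.27, 4.18 and 4.27 in controls, 4.24, 3.57 and 4.25 on the high fat diet and 4.06, 3.82 and 3.99 with metformin. Gpt is alanine aminotransferase, the liver enzyme measured in blood as a sign of liver injury. Its group means were 3.91 ± 0.55, 4.02 ± 0.39 and 3.96 ± 0.12 (SD, n = 3 pools each), closer together than the pools of the control group.

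Lamtor2, a subunit of the complex that anchors mTORC1 signalling at the lysosome, led the small intestine clones at 3.31 ± 0.46 in controls, 3.35 ± 0.10 on the diet and 3.13 ± 0.18 with metformin (SD, n = 3). C1galt1, the enzyme that builds the core of mucin-type O-glycans, led the stomach clones at 1.83 ± 0.52, 1.69 ± 0.24 and 1.59 ± 0.19 in the same order. Unnamed clones led the colon and cecum libraries. Clone 9030614M07 (colon) was at 3.01 ± 0.07, 3.26 ± 0.12 and 3.22 ± 0.28, and clone 9130226K06 (cecum), the brightest member of all, at 6.38 ± 0.04, 6.51 ± 0.23 and 6.60 ± 0.07. None of these 4 probes passed the test in any comparison. The liver clone of the noncoding gene 1300002E11Rik was at 1.12 ± 0.08, 1.17 ± 0.09 and 1.30 ± 0.13, and the RefSeq probe of that gene at 3.10 ± 0.09, 3.16 ± 0.23 and 3.04 ± 0.30. From control to metformin the clone differed by 0.19 and the RefSeq probe by -0.06. The clone's difference was 0.11 without metformin replicate 3, 0.11 with normexp and 0.01 with slide as a fixed block.

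**Figure D2:**
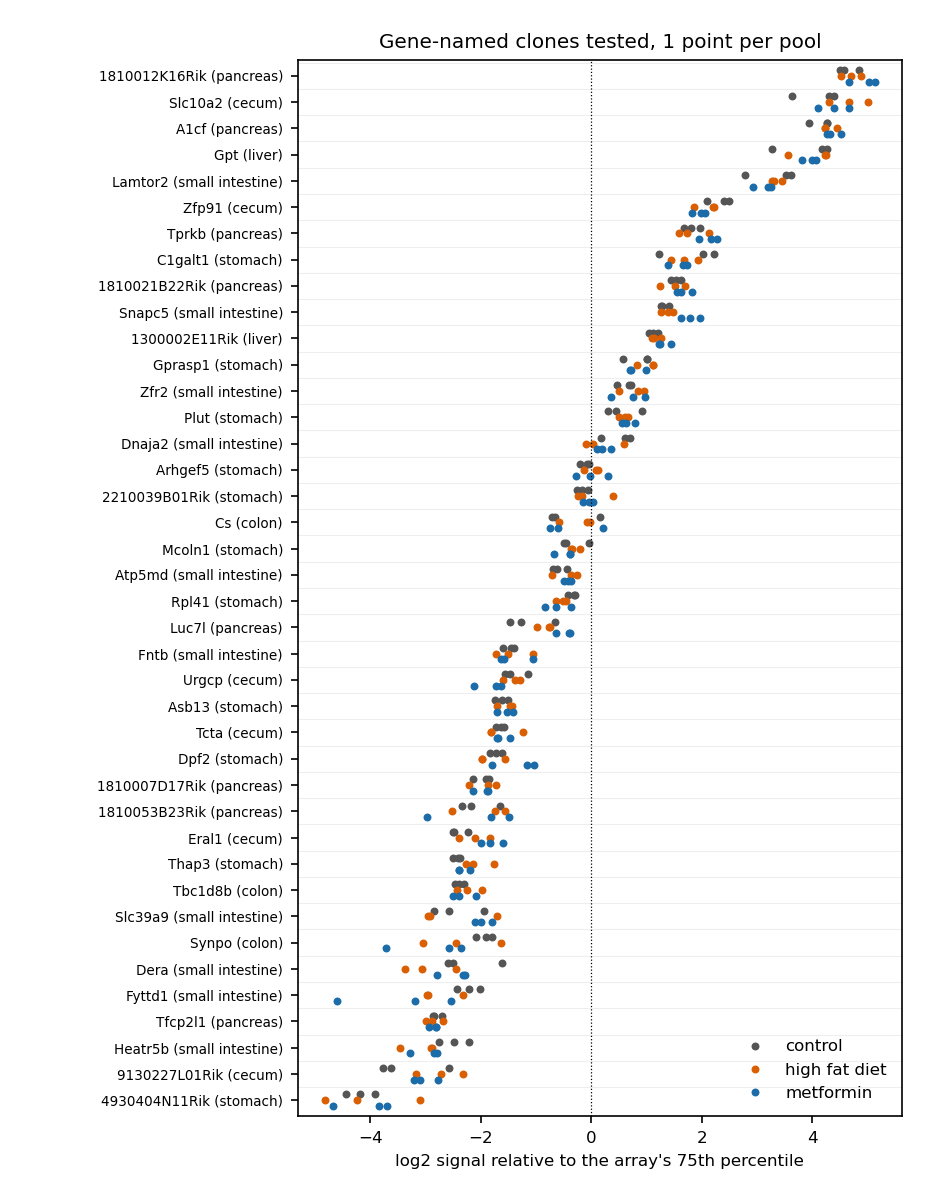
Level of each gene-named clone that was above background on at least 3 arrays, as log2 processed signal less the array's 75th percentile, with 1 point per pool of 4 mice coloured by group. The points of most genes overlap between groups, and 1810012K16Rik, A1cf and Slc10a2 are the brightest gene-named clones.

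Other clones were matched by identifier to genes used in most cells. Clones of Cs, the citrate synthase of the tricarboxylic acid cycle, Atp5md, a subunit of ATP synthase, Rpl41, a ribosomal protein, and Mcoln1, a lysosomal cation channel, had group means between -0.62 and -0.23. Tprkb, a subunit of a complex that modifies transfer RNA, was at 1.81 ± 0.14, 1.82 ± 0.28 and 2.14 ± 0.17 in control, diet and metformin (SD, n = 3). A stomach clone was matched to Plut, a noncoding RNA next to the pancreatic regulator Pdx1. That clone was above background in all 9 liver pools, at 0.55 ± 0.32, 0.59 ± 0.08 and 0.65 ± 0.13. The lists of lipid, glucose, bile acid and other metabolic genes gave no further values, since 0 of 153 genes in 9 lists is read by a member.

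High fat diet was compared with chow to ask what the diet changed, and the saline gavage of the diet group goes with it. No member passed an adjusted p under 0.05 in limma, while 28 of all 62036 probes tested did (0.0451%). At an unadjusted p under 0.05 there were 13 members (8.3%), against 12.1% of all probes. Of these, 4 were higher and 9 lower, against 4.88% and 7.2% of all probes. The 3 diet pools did not overlap the 3 control pools for 25 members (16%), against 15.4% of all probes. The diet group was higher for 86 members and lower for 70, with a median difference of 0.04, against -0.01 over all probes. Without control replicate 1 the unadjusted count was 24 (15.4%, against 14.2% of all probes), and with slide as a fixed block it was 5 (3.2%, against 4.8%).

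The smallest p-values between diet and chow belonged to unnamed cecum and colon clones. Clone 9130203L14 (cecum) was at 1.55, 1.39 and 1.42 in controls, 1.89, 2.29 and 2.02 on the diet and 1.96, 1.79 and 2.09 with metformin. All 6 pools on the diet lie above all 3 control pools, but of these only high fat diet replicate 1 shares a slide with the controls. The diet group was higher by 0.61 (SE 0.15, unadjusted p = 0.00265, limma adjusted p = 0.19), and within slide 1 by 0.44. Clone 9130225I09 (cecum) was at -0.23, -0.72 and -0.35 in controls, 0.10, 0.19 and 0.46 on the diet and -0.10, 0.17 and 0.39 with metformin. It was higher on the diet by 0.68 (SE 0.19, limma adjusted p = 0.208), and by 0.53 with slide as a fixed block. Again every diet pool lies above every control pool. Clone 9130015J01 (cecum) was at 0.62, 0.65 and 0.41 in controls, 0.98, 1.11 and 1.20 on the diet and 0.92, 0.95 and 1.42 with metformin. The difference was 0.54 (SE 0.17, limma adjusted p = 0.251), without overlap of the pools, and 0.42 with slide as a fixed block. For these clones, in the order given, metformin differed from control by 0.50, 0.58 and 0.54. With slide as a fixed block those values were 0.16, 0.24 and 0.20.

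Clone 9130226P21 (cecum) was at -1.98, -1.75 and -1.87 in controls, -2.27, -2.69 and -2.93 on the diet and -2.54, -2.91 and -2.44 with metformin. The controls are the 3 highest pools, and the probe was above background in 3 control, 1 diet and 2 metformin pools. The diet group differed from control by -0.76 (SE 0.20, limma adjusted p = 0.196), and within slide 1 by -0.40. Clone 9130011L11 (cecum) was at -1.22, -1.29 and -1.24 in controls, -2.67, -2.06 and -1.75 on the diet and -1.47, -1.82 and -2.24 with metformin. Its controls lie above every other pool, and its difference was -0.91 (SE 0.25, limma adjusted p = 0.211), or -1.42 within slide 1. Clone 9030405F24 (colon) was at -2.01, -2.04 and -1.74 in controls, -2.31, -3.38 and -3.14 on the diet and -2.52, -3.45 and -2.59 with metformin. Its diet difference was the lowest of all members, at -1.01 (SE 0.31, limma adjusted p = 0.246) and -0.38 within slide 1, with 1 diet pool and 2 metformin pools above background. With normexp background correction these 3 clones, in the order given, differed by -0.21, -0.47 and -0.40.

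Among gene-named members, 3 of 40 tested (7.5%) had an unadjusted p under 0.05 between diet and chow, against 12.1% of all probes. Dera, an aldolase that breaks down deoxyribose phosphate, differed by -0.72 (SE 0.31, limma adjusted p = 0.389), and without control replicate 1 by -0.41. Heatr5b differed by -0.59 (SE 0.22, limma adjusted p = 0.32) and Thap3 by 0.37 (SE 0.16, limma adjusted p = 0.392), or 0.22 without high fat diet replicate 2. With normexp the 3 differences were -0.26, -0.17 and 0.16, and within slide 1 those of Dera and Thap3 were -0.21 and 0.17. The pools did not overlap for Heatr5b and Thap3, and they overlapped for Dera.

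Metformin was compared with saline on the same diet to ask what the drug changed, and the saline pools also enter the comparison with chow. No member passed an adjusted p under 0.05 in limma, against 4 of all probes (0.00645%), and the smallest adjusted p of a member was 0.611. At an unadjusted p under 0.05 there were 12 members (7.7%), against 6.64% of all probes. Of these, 5 were higher and 7 lower, against 3.31% and 3.34%. The pools did not overlap for 19 (12.2%), against 16.2%. The median difference was -0.03, against 0.01 over all probes. Without metformin replicate 2 the unadjusted count was 6 (3.8%, against 4.6% of all probes).

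The gene-named member with the lowest p for the drug was Snapc5, a subunit of the complex that starts transcription of small nuclear RNA genes, whose upstream bases are printed above. Its clone (small intestine) was at 1.27, 1.41 and 1.28 in controls, 1.39, 1.48 and 1.26 on the diet and 1.62, 1.96 and 1.78 with metformin. The 3 metformin pools are the highest of the 9. Metformin was higher than saline by 0.41 (SE 0.14, unadjusted p = 0.0168, limma adjusted p = 0.652), and by 0.42 within slide 2. Dpf2, a subunit of a chromatin remodelling complex, was higher by 0.51 (SE 0.21, limma adjusted p = 0.729) with overlapping pools.

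Unnamed clones had the other smallest p-values for the drug. Clone 9130014E16 (cecum) was at -0.83, -0.77 and -0.48 in controls, -0.80, -1.11 and -0.54 on the diet and -0.05, -0.18 and -0.44 with metformin. Its metformin pools lie above all others, with a difference from saline of 0.60 (SE 0.19, limma adjusted p = 0.624) and of 0.71 within slide 2. Clone 1810044K17 (pancreas) was at -0.12, 0.23 and 0.19 in controls, 0.47, 0.05 and 0.32 on the diet and -0.14, -0.79 and -0.24 with metformin. Its metformin pools are the 3 lowest of the 9, with a difference from saline of -0.67 (SE 0.20, unadjusted p = 0.00861, limma adjusted p = 0.611) and of -0.65 within slide 2. Clone 9130014A12 (cecum) was at -1.90, -1.67 and -1.61 in controls, -1.47, -1.52 and -1.46 on the diet and -1.70, -1.97 and -1.98 with metformin. The diet pools are the 3 highest, and metformin differed from saline by -0.40 (SE 0.14, limma adjusted p = 0.668). Clone 9130229N11 (cecum) was at -1.11, -1.77 and -2.01 in controls, -1.69, -1.27 and -1.42 on the diet and -2.01, -2.76 and -1.92 with metformin. Metformin lay below saline without overlap, by -0.77 (SE 0.28, limma adjusted p = 0.672), and without metformin replicate 2 by -0.51. The 9130229N11 probe was not above background on all 9 arrays. With normexp the differences of 9130014A12 and 9130229N11 were -0.14 and -0.34.

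Metformin on the high fat diet was also compared with chow, a difference of diet, drug and gavage together that shares its samples with both comparisons above. No member passed an adjusted p under 0.05 in limma, against 339 of all probes (0.546%), and the smallest adjusted p of a member was 0.0633. At an unadjusted p under 0.05 there were 27 members (17.3%), against 19.1% of all probes. Of these, 13 were higher and 14 lower, against 8.65% and 10.4%. The pools did not overlap for 32 (20.5%), against 24.9%. The median difference was -0.01 over members and over all probes. The unadjusted count was 17 without metformin replicate 2 (10.9%, against 14.1% of all probes) and 6 with slide as a fixed block (3.8%, against 4.3%), where no slide holds both groups. With slide as a random block 18 of 156 members passed, 10 higher and 8 lower, a smaller share than the 13.3% of all probes in that fit, at an estimated within-slide correlation of -0.168.

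Clone 9030601B04 (colon) had the smallest p of all members. It was at 3.40, 3.33 and 3.18 in controls, 2.96, 3.02 and 2.22 on the diet and 2.26, 2.46 and 1.95 with metformin. All controls lie above every pool on the diet, and the metformin pools overlap those on saline. Metformin differed from control by -1.08 (SE 0.23, unadjusted p = 0.00084, limma adjusted p = 0.0633), and the adjusted p was under 0.05 in 5 of 18 alternative settings, over which it ran from 0.00867 to 1. With slide as a fixed block the difference was -0.60. From saline, metformin differed by -0.51, at an unadjusted p under 0.05 in limma, and by -0.26 with slide as a fixed block. The high fat diet group with saline gavage differed from control by -0.57 (SE 0.23, limma adjusted p = 0.357), by -0.31 without high fat diet replicate 3 and by -0.34 within slide 1.

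Clone 9130219B18 (cecum) was at -1.99, -1.81 and -1.84 in controls, -1.56, -1.70 and -1.68 on the diet and -1.41, -1.05 and -1.33 with metformin. The groups do not overlap in any of the 3 comparisons, in the order control, diet, metformin. Metformin was higher than control by 0.62 (SE 0.14, limma adjusted p = 0.0761) and higher than saline by 0.38 (SE 0.14, limma adjusted p = 0.689), and the diet differed from chow by 0.24 (SE 0.14, limma adjusted p = 0.571). With normexp these values were 0.38, 0.24 and 0.14. Clone 2210017G18 (stomach) was at -1.90, -2.23 and -1.79 in controls, -1.97, -0.96 and -1.71 on the diet and -1.34, -0.55 and -0.49 with metformin. It had the highest difference between metformin and control of all members, 1.18 (SE 0.30, limma adjusted p = 0.0909), and its diet pools overlap both other groups. With slide as a fixed block the difference was 0.40. Metformin was higher than saline by 0.75, at an unadjusted p under 0.05 in limma. That value was 0.49 with normexp and 0.39 with slide as a fixed block.

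**Figure D3:**
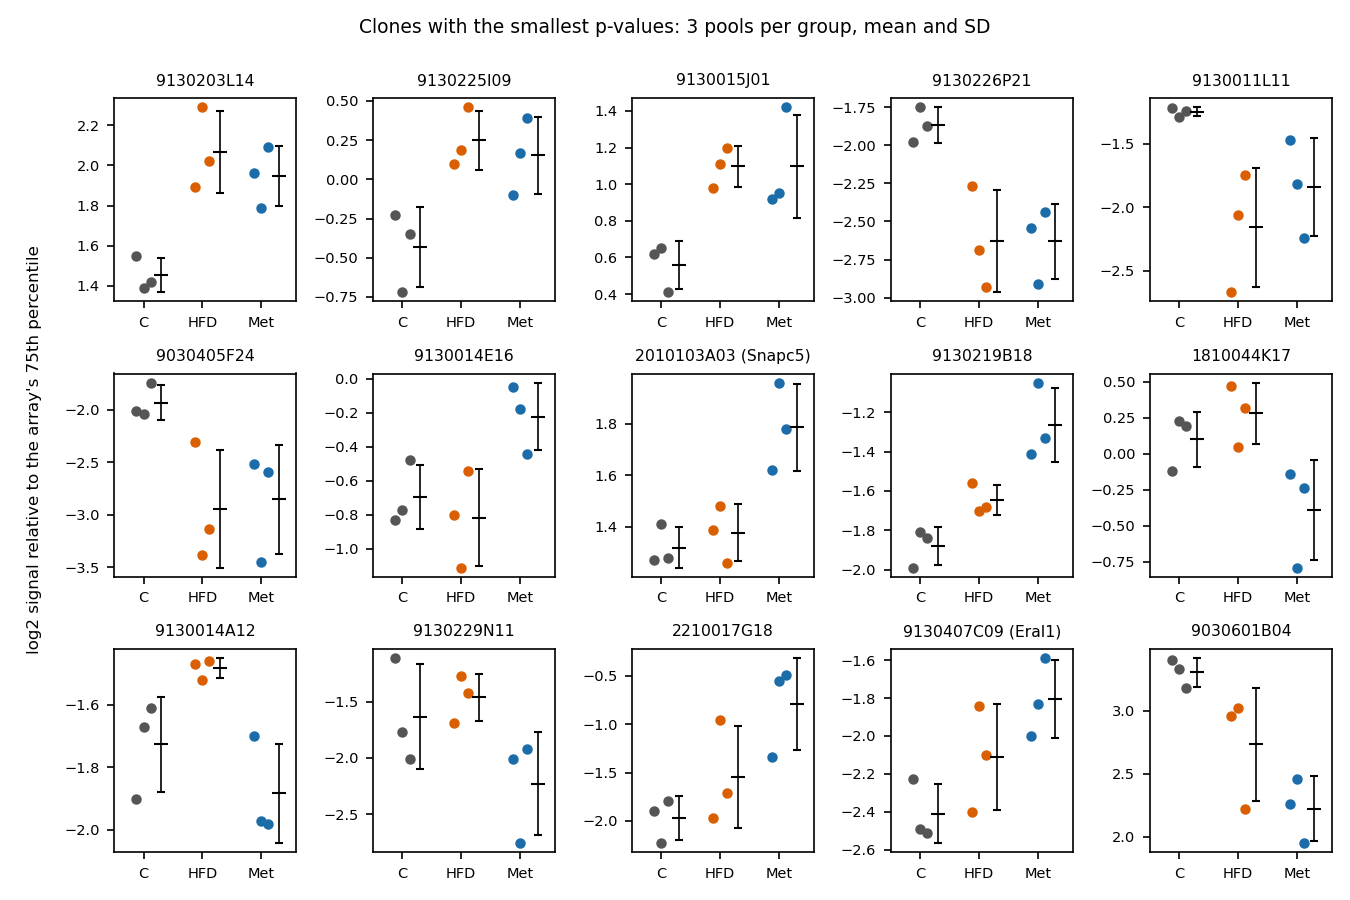
Level of the leading clones in each pool, as log2 processed signal less the array's 75th percentile, for control (C), high fat diet (HFD) and metformin (Met), with 1 point per pool of 4 mice. The axis differs between panels, and 9030601B04 runs from 3.30 in controls through 2.73 to 2.22 with metformin as group means.

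Among gene-named members, 8 of 40 tested (20.0%) had an unadjusted p under 0.05 between metformin and control, 3 higher and 5 lower, a share near the 19.1% of all probes. Eral1, which helps assemble the small subunit of the mitochondrial ribosome, was at -2.23, -2.49 and -2.51 in controls, -2.40, -1.84 and -2.10 on the diet and -2.0, -1.83 and -1.59 with metformin. Its metformin pools lie above all controls and overlap the diet pools, and it was higher than control by 0.60 (SE 0.18, limma adjusted p = 0.134). That difference was 0.06 with slide as a fixed block and 0.28 with normexp background correction. Luc7l, a splicing factor, was at -0.65, -1.48 and -1.28 in controls, -0.99, -0.76 and -0.74 on the diet and -0.64, -0.41 and -0.38 with metformin. Control replicate 1 lies next to the metformin pools and the other controls are the lowest of all, with a difference of 0.66 (SE 0.21, limma adjusted p = 0.145). Without control replicate 1 that difference was 0.90 (limma adjusted p = 0.0286), and with slide as a fixed block 0.37. Snapc5 was higher by 0.46 (SE 0.14, limma adjusted p = 0.134).

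The lower gene-named members were Fyttd1, Synpo, Urgcp, Zfp91 and Heatr5b. Fyttd1, an adaptor of messenger RNA export, differed by -1.22 (SE 0.44, limma adjusted p = 0.177), with metformin replicate 2 at -4.60, and by -0.64 without that pool. The value of -4.60 lies below the lowest mean level of any tested member, -4.10. Of the 27 members at an unadjusted p under 0.05 in this comparison, 22 were above background on all 9 arrays. Synpo, an actin-associated protein, differed by -0.95 (SE 0.40, limma adjusted p = 0.234), and by -0.54 without metformin replicate 2. The Urgcp clone differed by -0.43 (SE 0.18, limma adjusted p = 0.242) and that of Heatr5b by -0.49 (SE 0.22, limma adjusted p = 0.261). Zfp91, a zinc finger protein, differed by -0.38 (SE 0.16, limma adjusted p = 0.246), while another clone probe of the same gene differed by 0.45 (SE 0.16, limma adjusted p = 0.176), the opposite direction. With slide as a fixed block Fyttd1, Synpo, Heatr5b and Zfp91 differed by -0.71, -0.10, -0.28 and -0.20. With normexp Fyttd1, Synpo, Urgcp and Heatr5b differed by -0.19, -0.26, -0.14 and -0.06, and Urgcp by -0.28 without metformin replicate 2.

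**Figure D4:**
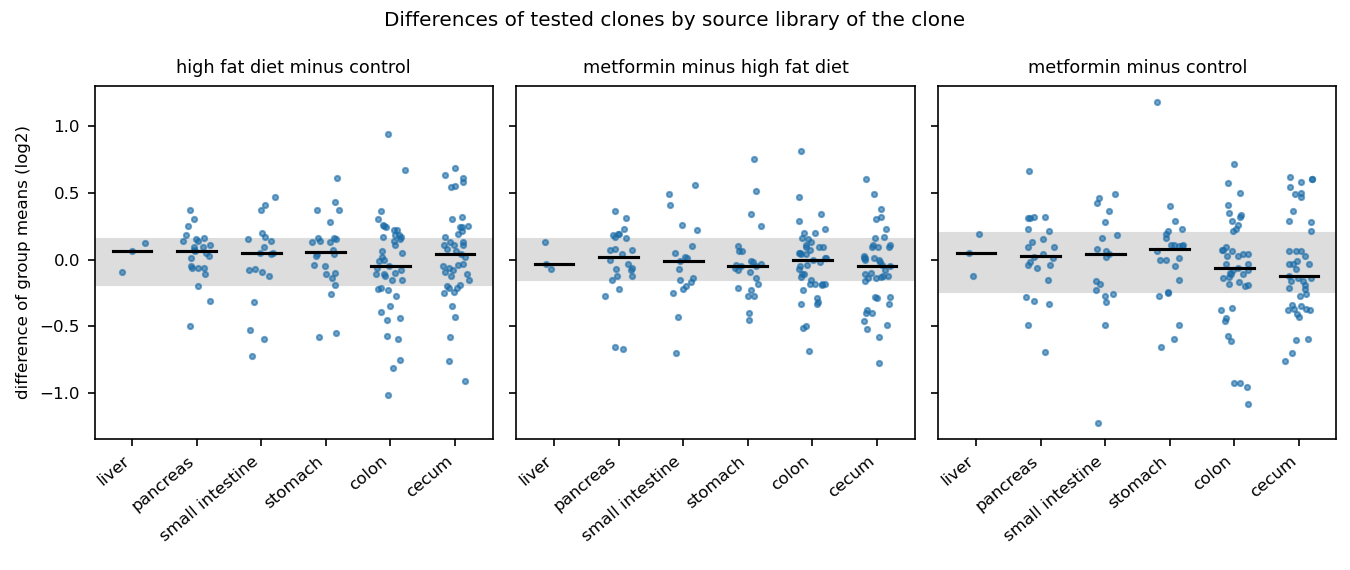
Difference between group means of each tested clone, in log2 units, by library prefix and comparison, with 1 point per clone. Differences run from -1.22 to 1.18 and the prefix medians lie between -0.12 and 0.08.

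By prefix, the median difference lay between -0.05 (colon) and 0.07 (pancreas) for diet against chow, between -0.05 (stomach and cecum) and 0.02 (pancreas) for metformin against saline, and between -0.12 (cecum) and 0.08 (stomach) for metformin against chow. Cecum clones had 12 of 43 members (27.9%) at an unadjusted p under 0.05 between metformin and control, 7 higher and 5 lower, and colon clones 6 of 43 (14%). Pancreas, small intestine and stomach clones had 3 each, and the liver clones 0 of 3. The prefixes were not tested against each other, and 19.1% of all probes were at that p in this comparison.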

How the data were processed

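Liver RNA was labelled with Cy3 and hybridised to 1-colour Agilent arrays. The deposited scanner files hold intensity values per spot, background-subtracted by Feature Extraction (version 11.5.1.1 per the file headers, 10.7 per the submitters' processing notes). The authors' deposited log2 table equals log2 processed signal less a constant per array, so its scale and direction are known from the scanner values.

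Here control spots and outlier flags were left out, spots of a probe were averaged, and log2 signal less each array's 75th percentile was used. Detection of a probe required the well-above-background flag on a share of at least 0.5 of spots, and tests covered probes detected on 3 or more of the 9 arrays. limma 3.58.1 (R 4.3.3) fitted 1 mean per group over all 9 arrays and all 62036 probes, checked on simulated data, with Benjamini-Hochberg adjustment and a threshold of 0.05. Gene names came from RefSeq (GRCm38.p6) by matching clone identifiers with symbols and synonyms. The files name build mm9, so no clone coordinates are given.

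Named members were the 3 higher and 3 lower members of smallest p in each comparison and, for each prefix, the brightest and the one with the smallest F-test p. Other gene-named members, named by an unadjusted p under 0.05, by level or by role, were chosen after their values were seen. The members and lists were chosen with earlier results of these data known. Alternatives were normexp background correction (offset 50, on the median signal, since the files used hold no mean signal), quantile normalization, the deposited table, filters, slide and replicate blocks, a trended spread and leaving out each array. The labels give no pairing of the samples by replicate number. Of 9 same-number correlations 1 was over 0.1, and with 3 arrays a group these cannot settle whether samples were paired.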

Additional observations from a re-analysis of the deposited data

How the results depend on the processing

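In the settings run, the count of members above background stayed within 1.5 times its value, and no member passed for diet against chow or for metformin against saline. The median differences moved by less than 0.093, the within-group standard deviation over arrays of the members' median level, though their sign is not fixed: metformin against saline gave 0.02 with normexp, and metformin against chow gave 0.045 with quantile normalization. For metformin against chow, 0 members passed in the fit reported; 1 passed with normexp background correction, 1 with probes above background on all 9 arrays, 1 with a trended spread and 18 with slide as a random block, and leaving out 1 array gave 0 to 2 (2 without control replicate 1, Luc7l and clone 9130410H17, and 1 without high fat diet replicate 3). The single member was clone 9030601B04 each time. The negative within-slide correlation (-0.168) narrows the errors of that random block, which called 8243 of all probes. Counts at an unadjusted p under 0.05, an alternative added after seeing the data, were 5 for diet against chow and 6 for metformin against chow with slide as a fixed block. Leaving out 1 array gave 9 to 24, 6 to 15 and 17 to 29 for diet against chow, metformin against saline and metformin against chow, with the extremes 24 without control replicate 1, 6 and 17 without metformin replicate 2. The cause was not tested. With the replicate number as a block, 0 members passed in each comparison, and 15, 14 and 25 had an unadjusted p under 0.05. Of 355 values of 20 named differences under alternatives, 344 kept their sign and call, 11 passed the threshold, all for metformin against chow, and 0 reversed. None of the 20 passed in the fit reported, so a kept call means only that the difference again did not pass. Sizes moved more than calls: among differences at an unadjusted p under 0.05, those that changed by over 1.5 times were 9 of 13, 5 of 12 and 13 of 27 with normexp, and 8, 3 and 18 with slide as a fixed block, in the same order of comparisons, where 1 of 13 and 1 of 27 turned sign with the fixed block. The normexp setting added 50 to each corrected signal before the log, which by itself makes log2 differences smaller, most of all for dim probes. How much of the change with normexp came from that offset was not tested. With 3 pools a group, the number of arrays limits the precision, and an exact permutation test of 3 against 3 cannot go below p = 0.1.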

Other observations

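Some members stood far from the other arrays in single pools. Among the tested members, 6 were more than 1 log2 unit below the median of the other arrays in metformin replicate 2 and 3 were as far above (3.85% and 1.92%, against 2.09% and 0.701% of all probes). In control replicate 1, 4.17% of all probes and 0.641% of members were as far above. Clone 9030223M17 (colon, above background on 4 arrays) was at 0.01 in metformin replicate 2 and between -3.37 and -1.60 in the other 8 pools. The metformin group differed from saline by 0.81 (SE 0.79) for that clone, and by -0.26 without that pool.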
